A study of Homo sapiens with 6 samples.

Results

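CD83 and SPI1 are followed here probe by probe in Jurkat cells (an established line from a human T-cell leukaemia) after knockdown of p65 or RPS3. The members are all probes that the platform annotation gives to CD83 (12 probes) or to SPI1 (6 probes), 18 of the 15246 probes in the table and 2 of its 4604 gene symbols. A measured ratio per probe on 6 spotted 2-colour arrays is the only readout. On each array, RNA from cells given p65 siRNA or RPS3 siRNA was labelled with Cy5, and RNA from cells given nonspecific control siRNA with Cy3. Cells of both channels had the same stimulation through CD3 and CD28 (1 ug of antibody) for 1, 3 or 6 h, so the controls were stimulated too. Each siRNA had 3 arrays, 1 per time, and a single time point has no replicate check. The 6 arrays held 12946 to 14423 values, with standard deviations over all probes of 0.26 (RPS3 siRNA, 3 h) to 0.51 (p65 siRNA, 3 h). Both genes were chosen with results of these arrays known, so their own ratios are a description and carry no test.

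CD83 encodes a surface glycoprotein of the immunoglobulin superfamily, a marker of mature dendritic cells that activated lymphocytes also display. Its protein is known to keep MHC class II and CD86 on the cell surface by opposing the ubiquitin ligase MARCHF1, and its gene is a known target of NF-kB, the factor family to which p65 (RELA) belongs. SPI1 encodes PU.1, an ETS-family transcription factor that drives myeloid and B-cell development and is shut down early in T-cell development. RPS3 is a ribosomal protein that the series examines as a part of p65 complexes. In a 2-colour ratio the level itself is lost, so whether SPI1 was expressed in these cells is not given by any value below.

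CD83 lies on chromosome 6 from 14117256 to 14136918 and SPI1 on chromosome 11 from 47354860 to 47378547 in RefSeq's GRCh38.p14 annotation. The positions of the probes within the genes were not used here. RefSeq's promoter table matched CD83 with 2 windows, for start sites 516 bases apart, and did not match SPI1. The 250 bases before the second start are shown because CD83 is a known NF-kB target and its ratios were measured after knockdown of p65. Capitals mark each stretch that matches GGGA, then any 4 bases, then CC, on either strand, a short form of the NF-kB motif, with overlapping matches joined (chr6:14117522-14117771, plus strand, GRCh38.p14).
CD83 promoter: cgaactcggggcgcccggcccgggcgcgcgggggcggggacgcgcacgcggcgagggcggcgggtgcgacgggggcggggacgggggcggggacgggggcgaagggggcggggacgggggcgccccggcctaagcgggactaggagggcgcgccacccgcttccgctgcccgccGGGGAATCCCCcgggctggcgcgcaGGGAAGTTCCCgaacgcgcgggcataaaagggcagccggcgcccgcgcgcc
The first stretch, GGGGAATCCCC, runs from -76 to -66 and the second, GGGAAGTTCCC, from -51 to -41, counted back from the start site. Each reads nearly the same on both strands and matches the search on both. The window of the first start site holds 0 such stretches. Among all 35116 windows of this length, 22.6% hold at least 1 stretch and 3.65% hold 2 or more. A match describes letters and is not evidence of binding in these cells.

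The ratios are siRNA over control on the log2 scale, the likely direction, which the table does not state, nor the log base. The RPS3 probe 35554_1 read -2.50, -2.53 and -1.44 at 1, 3 and 6 h on the RPS3 siRNA arrays and 0.11, 0.01 and 1.11 on the p65 siRNA arrays. RELA has 2 probes that disagree. Probe 15848_1 averaged -0.91 ± 0.18 (SD, n = 3) with p65 siRNA and -1.07 ± 0.19 with RPS3 siRNA. Probe 28407_1 averaged -0.06 ± 0.11 and -0.01 ± 0.47. For both probes the siRNA means lay closer together than the spread over the times.

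CD83 was lower than control on every array by most of its probes. Of its 12 probes, 8 had a value on all 6 arrays, and 7 of these lay below 0 on all 6 arrays: 17066_1, 19239_1, 16610_1, 30431_1, 27545_1, 35174_1 and 28216_1. Over all tested probes, which means the 10721 with 6 values, 3.8% lay below 0 on every array. Only CD83 and ASPM had 7 or more such probes, among 28 symbols with at least 8 tested probes; this comparison was chosen after the values were seen. Averages over the 6 arrays lay under -0.5 for 7 member probes (6 of CD83 and SPI1 24559_1), against 1.06% of all tested probes; 28216_1, at -0.48, was just outside. Across the 7 low CD83 probes the mean log2 ratio ran from -0.95 to -0.37 with p65 siRNA and from -1.13 to -0.60 with RPS3 siRNA. Cy5 carried the siRNA sample on every array. A dye effect of a probe, of CD83 or SPI1, therefore cannot be told apart from an siRNA effect in these ratios to control.

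Probe 17066_1 was the lowest CD83 probe. It read -0.98, -0.83 and -1.06 at 1, 3 and 6 h with p65 siRNA, and -1.31, -0.81 and -1.27 with RPS3 siRNA. All 6 arrays were low, and the ranges of the siRNAs overlapped. Its means were -0.95 ± 0.12 and -1.13 ± 0.28 (SD, n = 3), or 1.94-fold and 2.18-fold below control, and its mean over 6 arrays had rank 6 from the lowest of all tested probes.

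Probe 19239_1 was the steadiest. It read -0.88, -0.83 and -0.84 with p65 siRNA at 1, 3 and 6 h, and -1.09, -0.95 and -0.98 with RPS3 siRNA. Every RPS3 siRNA array lay below every p65 siRNA array, and none of the 6 arrays lay above -0.83. The means were -0.85 ± 0.03 and -1.01 ± 0.07 (SD, n = 3), and the time-matched difference, RPS3 siRNA minus p65 siRNA, was -0.16 ± 0.05. How many of all tested probes keep the siRNAs apart on every array was not counted.

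Probe 16610_1 read -0.88, -0.88 and -0.71 with p65 siRNA at the 3 times, and -1.48, -0.66 and -0.57 with RPS3 siRNA. Its value at 1 h with RPS3 siRNA was the lowest of any member probe on any array, and its SD of 0.50 with that siRNA was the largest among the 7. Probe 30431_1 read -0.98, -0.94 and -0.50 with p65 siRNA and -1.11, -0.82 and -0.77 with RPS3 siRNA. In both probes the 6 h array was the least low of each siRNA.

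Probe 27545_1 ran the other way with p65 siRNA, at -0.66, -0.89 and -0.97 for 1, 3 and 6 h, and read -0.95, -0.57 and -0.98 with RPS3 siRNA. Probe 35174_1 read -0.82, -0.67 and -0.44 with p65 siRNA, and -1.26, -0.69 and -0.40 with RPS3 siRNA. Probe 28216_1 was the weakest of the 7, at -0.48, -0.51 and -0.11 with p65 siRNA and at -0.90, -0.65 and -0.24 with RPS3 siRNA. In both of these probes the 6 h arrays were again the least low.

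The other 5 CD83 probes did not lie below 0 throughout. Probe 30249_1, with a value on all 6 arrays, read 0.23, -0.18 and -0.25 with p65 siRNA and 0.01, 0.35 and -0.26 with RPS3 siRNA, 3 values on each side of 0. Probes 25052_1 and 29824_1 had 5 values each, between -0.36 and 0.22 and between -1.02 and 0.46. Probes 29969_1 and 31524_1 had 3 values each, from -0.40 to 0.49 and from 0.21 to 1.17. The sources used here do not say why a value is blank, and signal over background is unknown for all probes. Averaging all CD83 probes on each array gave a mean of -0.47 with p65 siRNA and -0.58 with RPS3 siRNA, against medians of -0.82 and -0.90 over the 7 low probes.

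**Figure D1:**
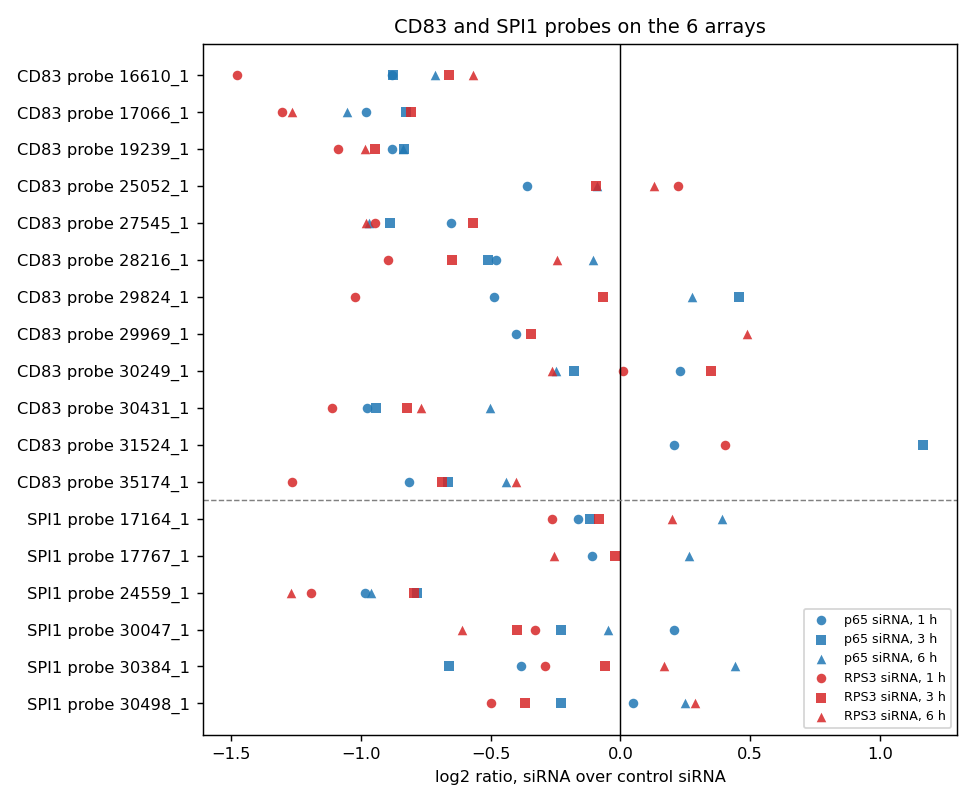
Log2 ratio (siRNA over control, x axis) of each CD83 and SPI1 probe (rows) on the 6 arrays; colour gives the siRNA and shape the time, and a missing symbol is a blank cell. For 7 CD83 probes and SPI1 probe 24559_1 all 6 symbols lie left of 0, from -1.48 to -0.11, while the remaining probes straddle 0 or lie right of it.

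SPI1 was below control on every array by 1 of its probes, and the rest lay on both sides of 0. Probe 24559_1 read -0.99, -0.79 and -0.96 with p65 siRNA at 1, 3 and 6 h, and -1.19, -0.80 and -1.27 with RPS3 siRNA. Its means were -0.91 ± 0.11 and -1.09 ± 0.25 (SD, n = 3), or 1.88-fold and 2.12-fold below control, and its mean over 6 arrays had rank 7 from the lowest of 10721. All 6 arrays were low, and the siRNAs overlapped.

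The other SPI1 probes did not share this. Probe 17164_1 read -0.17, -0.12 and 0.39 with p65 siRNA and -0.27, -0.08 and 0.20 with RPS3 siRNA. Probe 30384_1 read -0.38, -0.66 and 0.44, then -0.29, -0.06 and 0.17, in the same order. Probe 30498_1 read 0.05, -0.23 and 0.25 with p65 siRNA and -0.50, -0.37 and 0.29 with RPS3 siRNA. These 3 probes lay above 0 at 6 h with both siRNAs and, apart from 30498_1 at 1 h with p65 siRNA, below 0 at the earlier times.

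That sign pattern, below 0 at 1 and 3 h and above 0 at 6 h with both siRNAs, was held by 7.98% of all tested probes, and the 6 h arrays resembled each other over all probes (Pearson r = 0.69). Probe 30047_1 fitted neither shape: it read 0.21, -0.23 and -0.05 with p65 siRNA and -0.33, -0.40 and -0.61 with RPS3 siRNA, with means of -0.02 ± 0.22 and -0.45 ± 0.15. Every RPS3 siRNA array lay below every p65 siRNA array in this probe, with a time-matched difference of -0.42 ± 0.22. The share of all tested probes that separate in this way was not counted. Probe 17767_1 had 4 values, between -0.26 and 0.26.

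**Figure D2:**
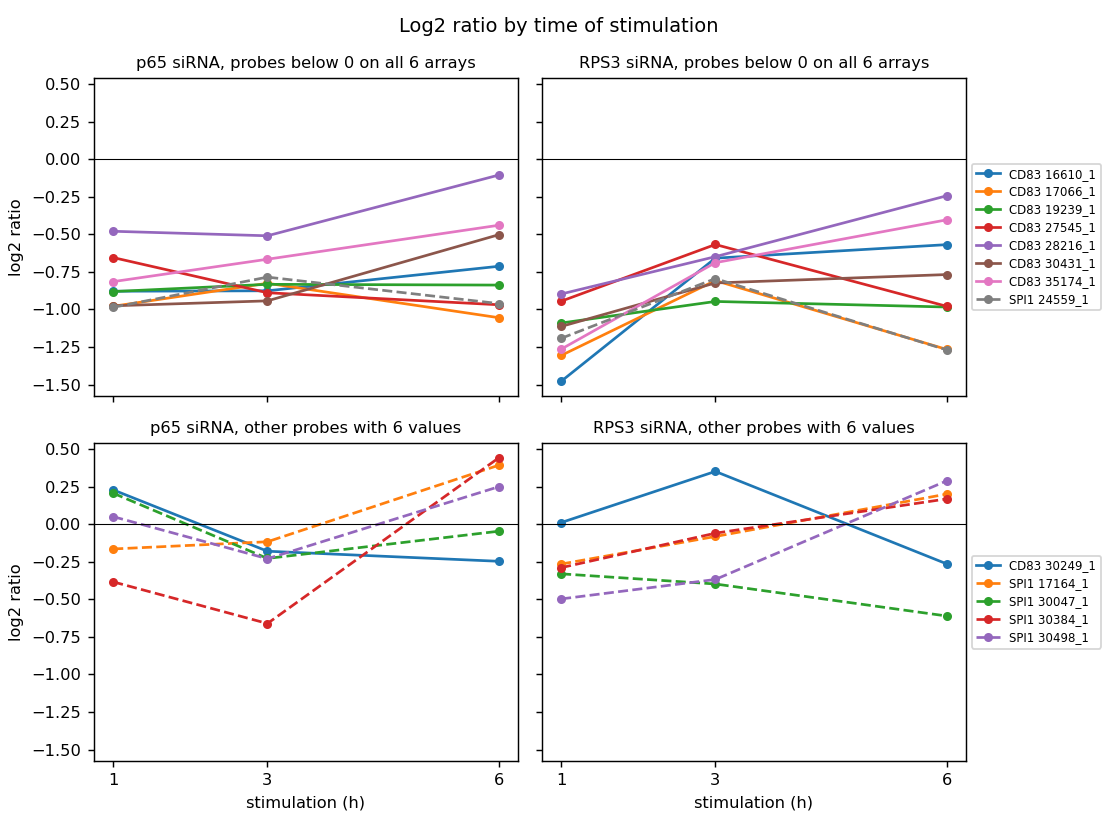
Log2 ratio against hours of stimulation (x axis) for p65 siRNA (left) and RPS3 siRNA (right); the upper panels hold the 8 probes below 0 on all 6 arrays and the lower panels the other 5 probes with 6 values, SPI1 dashed. SPI1 24559_1 runs along CD83 17066_1, while SPI1 17164_1, 30384_1 and 30498_1 rise above 0 at 6 h.

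Agreement between probes was measured as the root mean square difference over the 6 arrays, on the log2 scale. Among the 7 low CD83 probes it ran from 0.18 (19239_1 and 30431_1) to 0.64 (17066_1 and 28216_1), with a median of 0.31 over 21 pairs. The median over all 6762 pairs of tested probes that share a symbol was 0.29. The 7 were kept because they lay below 0 on every array, while the 6762 pairs were not chosen by their values. Whether CD83 probes agree as well as those of other genes therefore cannot be read from these medians. CD83 30249_1 differed from the 7 by 0.64 to 1.05.

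SPI1 24559_1 differed from the other 4 tested SPI1 probes by 0.81 to 1.04, and from the 7 low CD83 probes by 0.06 to 0.61. Its smallest difference was with CD83 17066_1, at 0.06, and on no array were these probes more than 0.11 apart. Across all tested probes with a symbol, each of this pair was the nearest to the other. Among the remaining 4 SPI1 probes the differences were 0.19 to 0.50, smallest for 17164_1 and 30498_1. By its ratios 24559_1 lay nearer to the 7 low CD83 probes than to the other tested SPI1 probes. This follows in part from the choice of these low probes as below 0 on every array. Its Pearson r with the 7 ran from -0.03 (28216_1) to 0.97 (17066_1). From CD83 30249_1 probe 24559_1 differed by 1.01. Whether 24559_1 measures the SPI1 transcript was not tested.

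**Figure D3:**
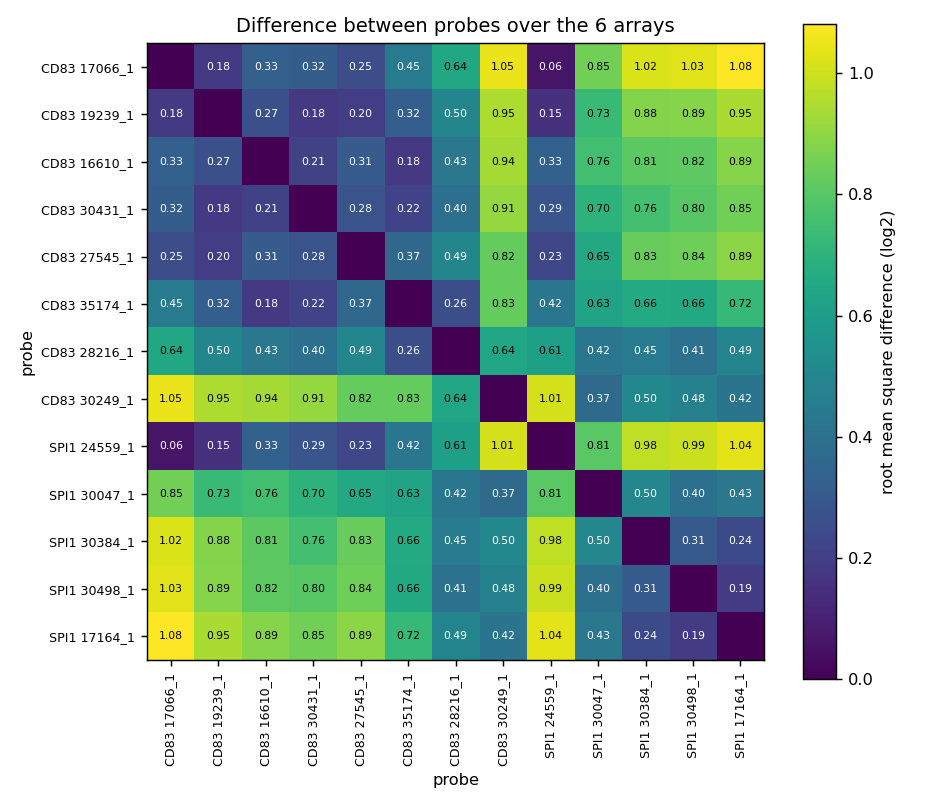
Root mean square difference in log2 ratio over the 6 arrays for each pair of the 13 CD83 and SPI1 probes with 6 values (dark is small). SPI1 24559_1 has a row like those of the low CD83 probes, with 0.06 against 17066_1 and 0.81 or more against every other SPI1 probe.

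Probes with neighbouring numbers did not share the low ratios. Within 5 numbers on either side of a low CD83 probe or of SPI1 24559_1 there were 8 to 10 other probes. The median of their mean ratios lay between -0.02 and 0.15, and the lowest single neighbour averaged -0.44, next to 17066_1 at -1.04.

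Other genes came close to the members by the same measure. For each member probe the 5 nearest probes with a symbol were taken. Around CD83 17066_1 they were SPI1 24559_1 (0.06), SGK1 35298_1 (0.18), CD83 19239_1 (0.18), SGK1 34708_1 (0.20) and RELA 15848_1 (0.20). SGK1 encodes a serum- and glucocorticoid-regulated kinase. Around SPI1 24559_1 they were CD83 17066_1, SGK1 35298_1 (0.14), CD83 19239_1 (0.15), SGK1 34708_1 (0.16) and RELA 15848_1 (0.22).

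The nearest probe to CD83 19239_1 was RELA 15848_1, at 0.15. NFKBIA 15866_1, for the NF-kB inhibitor IkB-alpha, was the nearest to CD83 35174_1 (0.17) and the third nearest to 16610_1 (0.26) and 30431_1 (0.21). The weakest of the 7, 28216_1, lay nearest to PLK1 27820_1 (0.12), IRF1 24405_1 (0.13), TNFSF10 16151_1 (0.13), CDA 36414_1 (0.13) and SDC4 27296_1 (0.14). The probes nearest to the other SPI1 probes were of another set, such as GPR3 37226_1 for 17164_1 (0.05), CTSB 19335_1 for 30047_1 (0.06) and RAC2 34286_1 for 30498_1 (0.09). All these differences are over the same 6 arrays, and a small one can reflect a shared low level without a shared course. Pearson r of RELA 15848_1 was 0.25 with SPI1 24559_1, 0.44 with CD83 17066_1 and 0.58 with CD83 19239_1. For SGK1 35298_1 it was 0.99 with SPI1 24559_1, 0.99 with CD83 17066_1 and 0.72 with CD83 19239_1. For NFKBIA 15866_1 it was 0.86 with CD83 35174_1, 0.86 with 16610_1 and 0.88 with 30431_1.

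**Figure D4:**
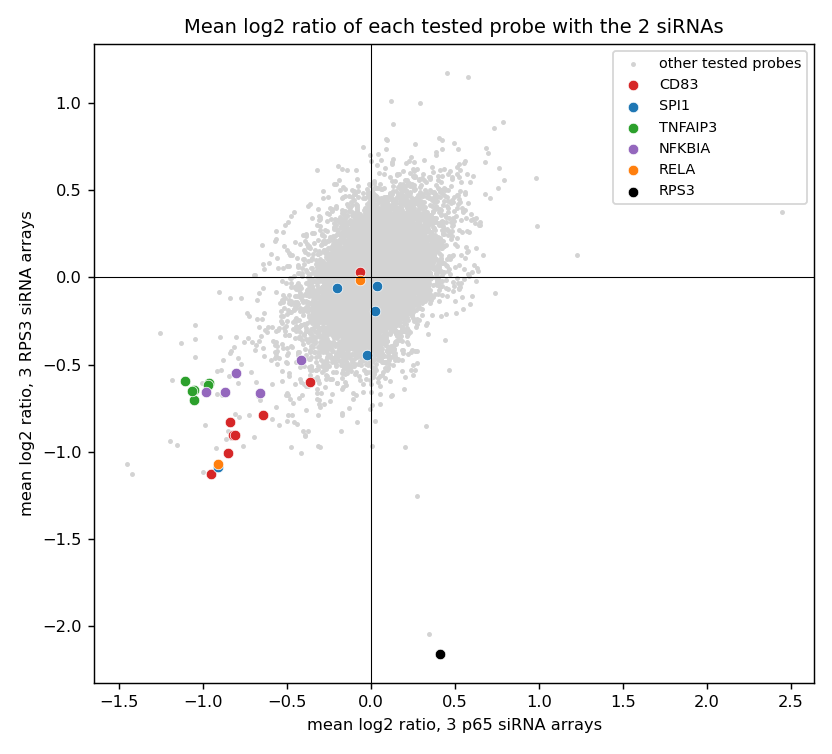
Mean log2 ratio over the 3 p65 siRNA arrays (x axis) and the 3 RPS3 siRNA arrays (y axis) for each of the 10721 tested probes, with named genes in colour. The low CD83 probes, SPI1 24559_1 and RELA 15848_1 lie at the lower left, the TNFAIP3 probes lie at -1.11 to -0.97 on the x axis and -0.71 to -0.59 on the y axis, and the other SPI1 probes lie nearer to 0, the farthest from it at -0.02 on the x axis and -0.45 on the y axis (30047_1).

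In the fit of all tested probes with limma, the p65 siRNA mean passed for 0 probes of 10721 (0%; lowest adjusted p = 0.0782; 545 with an unadjusted p under 0.05). The RPS3 siRNA mean passed for 7 (0.0653%; lowest adjusted p = 0.0439), all lower. They were RPS3 35554_1, the unnamed probe 35578_1, CD83 17066_1 and 19239_1, SPI1 24559_1, RELA 15848_1 and RHOU 28009_1. Nothing is read from the 3 members among them, since both genes were chosen from such results. The number fell when any single array was left out, also a p65 siRNA array, which enters the shared spread but not the RPS3 siRNA mean. It was 0 without the p65 siRNA 1 h, p65 siRNA 3 h, RPS3 siRNA 1 h or RPS3 siRNA 3 h array. Without the p65 siRNA 6 h or the RPS3 siRNA 6 h array it was 2, RPS3 35554_1 and 35578_1. The means of the 8 low probes stayed below 0 in each of these fits, which follows from their choice as below 0 on all 6 arrays.

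The siRNAs were then compared directly. At 1 h all 7 low CD83 probes had lower ratios under RPS3 siRNA than under p65 siRNA, with a median difference of -0.33, against -0.08 for all tested probes. At 3 h 3 of the 7 were lower (median 0.02, against 0.04 for all tested probes), and at 6 h 5 of the 7 (median -0.14, against 0.001). The share of all tested probes lower with RPS3 siRNA was not counted, and the 7 probes are of 1 gene on the same arrays. Averaged over the times, the differences ran from -0.23 to 0.01, and in 5 of the 7 the difference was smaller than its SD over the times. For SPI1 24559_1 it was -0.17 ± 0.15.

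The mAdb experiment IDs in the labels fall into 2 consecutive series. In the first (RPS3 siRNA at 3 h and p65 siRNA at 1 h) the median difference of the 7 CD83 probes was 0.13, with 2 of 7 lower. In the second (the other 4 arrays) it was -0.23, with 7 of 7 lower. No such value was taken over all tested probes within a series. Each series sets different times against each other, so siRNA and time cannot be fully told apart in either. The 6 h pair, time-matched within the second, is the 5 of 7 given above. The 1 h pair and the 3 h pair each cross the 2 series, so siRNA and series cannot be told apart in them. In the fit of all tested probes 0 of 10721 passed for this difference (0%; lowest adjusted p = 0.555; 287 with an unadjusted p under 0.05).

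Ordered by the median of the 7 low CD83 probes, the RPS3 siRNA 1 h array was lowest at -1.11, with the 7 between -1.48 and -0.90. The others followed closely, at -0.88 (p65 siRNA, 1 h), -0.83 (p65 siRNA, 3 h), -0.77 (RPS3 siRNA, 6 h), -0.71 (p65 siRNA, 6 h) and -0.69 (RPS3 siRNA, 3 h). Neighbours in this order overlapped in the range of the 7 probes. Of the 8 tested CD83 probes, 6 had their lowest value on the RPS3 siRNA 1 h array. That array also had a wide spread over all probes, with a standard deviation of 0.47 against 0.29 on the p65 siRNA 1 h array; its part in the lower values was not tested.

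With time, the low CD83 probes split. The mean of the 6 h arrays minus the mean of the 1 and 3 h arrays was 0.46 for 28216_1, 0.44 for 35174_1, 0.33 for 16610_1 and 0.33 for 30431_1. It was 0.03 for 19239_1, -0.18 for 17066_1 and -0.21 for 27545_1, and -0.18 for SPI1 24559_1. Over all tested probes the 5th and 95th percentiles of this value were -0.54 and 0.89, so every member lay inside that span. The slope per hour passed for 0 of 10721 probes (0%; lowest adjusted p = 0.0555; 2701 with an unadjusted p under 0.05). That count was 1192 without the p65 siRNA 1 h array, with SPI1 30498_1 among them just under the threshold, and 624 without the p65 siRNA 3 h array, with no member among them. Probes of TNFAIP3, the gene of the ubiquitin-editing enzyme A20, split further, from 0.09 (28987_1) to 1.45 (35299_1).

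The surroundings of CD83 were taken from lists of related genes, counted by probe, with CD83 and SPI1 themselves left out. In NF-kB target genes (61 genes, 144 probes tested) 0 probes passed with either siRNA; 96 probes (66.7%) lay below 0 on average with p65 siRNA and 92 (63.9%) with RPS3 siRNA, against 47.3% and 49.6% of all tested probes. The medians were -0.07 and -0.08. TNFAIP3 28987_1 averaged -1.06 ± 0.15 with p65 siRNA (limma adjusted p = 0.0782) and -0.71 ± 0.11 with RPS3 siRNA (adjusted p = 0.154). The 6 TNFAIP3 probes averaged -1.11 to -0.97 and -0.71 to -0.59, and the 5 NFKBIA probes -0.98 to -0.42 and -0.66 to -0.47. In the same list CCL4 34959_1, a chemokine probe, averaged 0.62 ± 0.11 with RPS3 siRNA and CXCL11 29398_1 0.64 ± 0.62 with p65 siRNA.

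Other activation markers of lymphocytes and dendritic cells had 0 of 64 probes passing with either siRNA. Their medians were -0.02 with p65 siRNA and -0.01 with RPS3 siRNA. In the same order, 35 and 33 probes (54.7% and 51.6%) lay below 0, against 47.3% and 49.6% of all tested probes. CD69, an early activation antigen, averaged -0.53 to -0.27 over its 4 probes with p65 siRNA and -0.02 to 0.16 with RPS3 siRNA. With RPS3 siRNA all 4 lay above 0 at 1 h and below 0 at 6 h. Probe 24561_1 was the widest, at 0.57, 0.06 and -0.70 (SD 0.64). The co-stimulatory ligand CD86 averaged 0.10 and 0.32 by its 1 tested probe, CD80 -0.11 and -0.01, and IL2RA, a receptor chain for interleukin 2, -0.03 and -0.12. CD40 lay between -0.08 and -0.02 over its 3 tested probes and both siRNAs. ICAM1, an adhesion molecule, averaged 0.05 ± 0.13 (28750_1) and 0.07 ± 0.69 (24268_1) with p65 siRNA. With RPS3 siRNA these probes averaged 0.17 ± 0.19 and -0.11 ± 0.59. CCR7 had 4 probes, 0 of them with 6 values.

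In the MHC class II pathway, where CD83 protein acts, 0 of 47 probes passed. The medians were 0.05 and -0.01. With p65 siRNA 16 probes (34.04%) lay below 0 and with RPS3 siRNA 26 (55.32%), against 47.3% and 49.6% of all tested probes. HLA-DQB1 28325_1 averaged -0.32 ± 0.10 and -0.21 ± 0.18 with p65 and RPS3 siRNA, but its probe 17273_1 averaged 0.22 ± 0.25 with RPS3 siRNA. MARCHF1 24654_1 averaged 0.42 ± 0.40 with p65 siRNA, and CD74 30079_1, for the invariant chain, 0.36 ± 0.09 with RPS3 siRNA.

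Around SPI1, 0 of 37 probes of 15 other ETS-family genes passed with either siRNA, with medians of -0.04 and -0.08. With p65 and RPS3 siRNA, 24 and 25 of these probes (64.9% and 67.6%) lay below 0, against 47.3% and 49.6% of all tested probes. These shares were close to those of the NF-kB target genes, 66.7% and 63.9%. SPIB, the nearest relative of SPI1, averaged 0.10 to 0.21 over its 3 tested probes with p65 siRNA and -0.10 to 0.12 with RPS3 siRNA. ETS1 34169_1, a factor of mature T cells, averaged -0.52 ± 0.44 with p65 siRNA and -0.13 with RPS3 siRNA. The FLI1 probes averaged -0.26 to -0.05 and -0.15 to -0.08, and those of ELF1 -0.26 to -0.14 and -0.12 to -0.06. SPIC was not matched.

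Partners and opponents of PU.1 had 0 of 111 probes passing with either siRNA, and medians of -0.01 and 0.03. GATA3, the T-cell factor that opposes PU.1, averaged -0.59 to -0.16 over its 4 probes with p65 siRNA and -0.29 to -0.12 with RPS3 siRNA. Its probe 28975_1 read -0.61, -0.54 and -0.61 with p65 siRNA (adjusted p = 0.941). RUNX1, which acts on the SPI1 gene in blood stem cells, averaged -0.09 to 0.28 and 0.08 to 0.23 over 5 probes. Among their probes with 1 sign on all 3 RPS3 siRNA arrays, TCF12 27868_1 was highest at 0.61 ± 0.44 and NOTCH3 36537_1 lowest at -0.57 ± 0.45. BCL11B was not matched.

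Genes that PU.1 switches on in myeloid and B cells had 0 of 111 probes passing, and medians of -0.0033 with p65 siRNA and -0.05 with RPS3 siRNA. In that order, 58 and 65 probes (52.3% and 58.6%) lay below 0, against 47.3% and 49.6% of all tested probes. ITGAM, an integrin of myeloid cells, averaged -0.30 and 0.10 by its 1 tested probe. CTSG 29260_1, a neutrophil protease, averaged -0.53 ± 0.07 with RPS3 siRNA (adjusted p = 0.258), and LSP1 16400_1 was on the other side at 0.46 ± 0.57. BLNK 33509_1, a B-cell adaptor, averaged -0.34 ± 0.25 with p65 siRNA and -0.43 ± 0.08 with RPS3 siRNA, and LYN 16173_1, a Src-family kinase, 0.26 ± 0.13 and 0.35 ± 0.30. With p65 siRNA, PTPRC 25149_1 averaged -0.43 ± 0.37 and ITGB2 24694_1 0.28 ± 0.15. CSF1R had 1 probe, without 6 values.

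Markers of T cells had 0 of 51 probes passing, with medians of -0.04 and 0.14; RAG1 28915_1 averaged 0.50 ± 0.17 and CD2 17510_1 0.46 ± 0.10 with RPS3 siRNA, while CD1A 32809_1 and 17474_1 averaged -0.34 ± 0.15 and -0.33 ± 0.22. With p65 siRNA, LEF1 26237_1 averaged -0.37 ± 0.27 and RAG1 16726_1 0.54 ± 0.31. Of a shorter list of 13 defining T-cell markers, 30 probes were tested, and their median ran from -0.12 (p65 siRNA, 3 h) to 0.52 (RPS3 siRNA, 6 h). Defining myeloid markers had 6 tested probes, with array medians from -0.01 to 0.14, and B-cell markers 10, from -0.13 to 0.32. Natural killer, erythroid and platelet markers had 0 of 23 probes passing, with medians of 0.11 and 0.02. Jurkat is an established T-cell line, so these markers are not read here as shares of cell types. In bulk RNA, a change in the share of cells that express a gene and a change of transcript per cell cannot be told apart.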

How the data were processed

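The deposited table held 1 log ratio per probe and array, read here as log2. Per the labels, Cy5 carried the siRNA sample and Cy3 the control; the sources used here do not give ratio direction, log base, image analysis or normalization. The members and gene lists were chosen with earlier results of these data known. The platform annotation gave 1 symbol to 10169 of 15246 probes (4604 symbols). Each array was centred on its median (deposited medians -0.02 to 0.007). The lowest correlation between arrays over all probes was -0.22. Each probe was kept alone. The 10721 probes with values on all 6 arrays entered a linear model per probe (lmFit and eBayes of limma 3.58.1, R 4.3.3), with the 3 times of a siRNA as replicates and Benjamini-Hochberg adjusted p under 0.05 as passing. The contrasts were each siRNA mean against 0, their difference, and the slope per hour. Such a contrast with 0 holds no spread of the control samples, and any dye effect remains in it. Separate cultures are not stated; a p-value therefore reflects the spread among these 6 arrays alone, which may be technical.

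Named genes were all member probes, a preset group of related genes, up to 3 list probes a side with 1 sign on a siRNA's 3 arrays, and the 5 nearest probes of each member. TNFAIP3 probes by time, IkB-alpha and the 7 passing probes were named beside these. Alternatives were a time point block, leaving out each array or both 6 h arrays, no centring, quantile normalization, averaging probes of a gene, at least 2 values per siRNA, and the ID series as a covariate. The number of arrays limits the precision.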

Additional observations from a re-analysis of the deposited data

Results flagged for a closer look

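In 4 probes named in the text or in the lists behind it, all 3 arrays of one siRNA lay above 0 and all 3 of the other below 0. The share of all tested probes with this split was not counted, so the 4 are a description. The RPS3 probe 35554_1 differed by -2.57 (RPS3 siRNA minus p65 siRNA), CTSG 29260_1 by -0.76, ITGB2 24694_1 by -0.52 and CCL4 34959_1 by 0.71. The fit of all probes passed none of these 4 differences (limma, lowest adjusted p = 0.555 over all 10721 probes). With the time point as a replicate block RPS3 35554_1 passed (2 probes in all, lowest adjusted p = 0.00631), and it passed without both 6 h arrays (1 probe in all). The other 3 passed in neither. No CD83 or SPI1 probe had opposite signs with the siRNAs in this way.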

How the results depend on the processing

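The median of the 7 low CD83 means stayed within its spread in every alternative but 1: averaging all probes of a gene gave -0.47 with p65 siRNA and -0.58 with RPS3 siRNA, since it mixes probes that disagree. For SPI1 the same step gave -0.19 and -0.35 in place of -0.91 and -1.09 for probe 24559_1, and quantile normalization moved that probe to -1.05 with p65 siRNA. With 1 array left out, the CD83 median ran from -0.86 to -0.79 and from -0.98 to -0.77, and SPI1 24559_1 from -0.97 to -0.87 and from -1.23 to -0.99. The median CD83 difference between siRNAs, -0.15, ran from -0.19 to 0.01, the last without the RPS3 siRNA 1 h array. The number of probes passing for RPS3 siRNA, 7, was also 7 with no centring (7 shared) and with the time point as a replicate block (5 shared, among them the 3 CD83 and SPI1 probes). It was 2 without both 6 h arrays and with quantile normalization, 0 with probes averaged, with at least 2 values per siRNA and with the ID series as covariate, and 0 to 2 with 1 array left out. For p65 siRNA it was 0 in every setting run. For the difference it was 2 with the block (RPS3 35554_1 and 35578_1), 1 without both 6 h arrays, 1 with quantile normalization, and 0 (0 to 0) with 1 array left out. For the slope it was 86 with no centring, 67 with quantile normalization, and 0 to 1192 with 1 array left out (1192 without the p65 siRNA 1 h and 624 without the p65 siRNA 3 h array). A slope could not be fitted with the block. Of 312 other values of single member probes, 297 stayed within their spread, but many of them could not move. Leaving out an array of 1 siRNA does not change the mean with the other. The time point block and the setting with at least 2 values per siRNA also leave these means as they were. The same holds for the CD83 medians and for SPI1 24559_1. The cause of these shifts was not tested unless named.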
